A study of Mus musculus with 6 samples.

Results

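Interleukins and their receptors were read from a table of log expression values of mouse intestine. The members are the 83 of 32219 genes whose symbol is "Il" and a number, with or without letters and a closing number. By role, 40 are receptor chains and 39 are secreted ligands or antagonists. Il18bp and Il22ra2 encode soluble binding proteins. Il4i1 encodes an amino acid oxidase, and Il1bos is an antisense RNA at Il1b, so both share the name pattern without being an interleukin or a receptor. Partner chains with other names, such as Csf2rb and Ebi3, fall outside the members.

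The study profiled polyadenylated RNA of whole intestine, with 3 libraries labelled KO and 3 labelled WT. The labels describe each sample as a mix of epithelial cells, immune cells and enteric neurons. They state neither which gene the KO libraries lack nor in which cells it was removed, and strain, sex and age are likewise not stated. The title names GPR41 and DHX9, and the design text speaks of the duodenum. Nothing states that the libraries came from separate animals, so p-values measure the spread between libraries, which may be technical. KO 1 holds no values on chromosomes 2 to 9, X and M or on most of 19, where its listed zeros were taken as missing. KO and WT were therefore compared with KO 2 and KO 3 against WT 1, WT 2 and WT 3, and KO 1 is described at the end.

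Interleukins are small secreted proteins through which leukocytes, epithelium and stroma signal to one another. Most of their receptors pair a chain specific for the ligand with a shared chain, such as the common gamma chain, gp130 or the IL-10 receptor beta chain, and pass the signal on through JAK kinases and STAT factors. The IL-1 and IL-17 families use separate adaptors that lead to NF-kB. In the gut, IL-22 and IL-17 made by lymphocytes act on epithelial receptors to raise antimicrobial proteins, IL-18 and IL-33 come largely from epithelium and stroma, and the common gamma cytokines maintain lymphocytes.

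Between 22061 and 22768 genes stood above 0 in the 5 libraries compared, and sequencing depth is unknown. All values are on the authors' log scale, read here as log2(abundance + 1). A difference of 1 on it is a doubling of the abundance plus 1, and so more than a doubling of the abundance itself. Epcam, an epithelial adhesion protein, stood at 8.22 and 8.42 in KO 2 and KO 3, against 8.45, 8.10 and 8.38 in WT 1, WT 2 and WT 3. The ileal bile acid binding protein gene Fabp6 stood at 8.16 to 8.76 in these 5 libraries and Gata4, a factor of the proximal small intestine, at 0.43 to 0.63, so their marker levels are those of distal rather than proximal small intestine. Dhx9 stood at 6.17 and 6.08 in KO 2 and KO 3, against 5.94 to 6.01 in WT. Both KO values lay above all WT values, as for 9.16% of genes that averaged 1 or more. Ffar3, the gene of GPR41, had 0.35 and 0.59 in KO 2 and KO 3, against 0.60, 0.18 and 0.46 in WT 1, WT 2 and WT 3. Neither gene can serve as a check of the genotype labels, since the labels do not name the target.

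Receptors made up most of the well-expressed members. In the 5 libraries, 35 of the 83 members averaged 1 or more, and these were 26 of the 40 receptor chains, 8 of the 39 ligands and the binding protein Il18bp. The other 48 averaged below 1. Of the 39 ligands, 6 were listed at 0 in all 5 libraries, namely Il3, Il13, Il19, Il20, Il25 and Il1f10. A further 4 ligands and the receptor Il1rapl2 stood above 0 in 1 library. Since depth is unknown, a listed 0 shows no limit on the true level.

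Receptor chains with means of 4 or more were mainly those of cytokines that act on epithelium. Il17rc, which pairs with Il17ra to bind IL-17A and IL-17F, had 5.31 and 5.30 in KO 2 and KO 3, against 5.56, 5.16 and 5.40 in WT 1, WT 2 and WT 3. Il13ra1, a receptor chain for IL-13, had 5.39 and 5.21 in the KO libraries, against 5.32, 5.22 and 5.56 in WT. Il10rb, the shared chain of the IL-10 and IL-22 receptors, had 4.87 and 4.82 in the KO libraries, against 4.77, 4.87 and 4.96 in WT. The KO values of all 3 chains lay within or across the WT range.

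The IL-22 receptor chain Il22ra1 had 4.42 and 4.87 in KO 2 and KO 3, against 4.73, 4.49 and 4.41 in WT. Il6st, which encodes gp130, the shared chain of the IL-6 family, had 4.48 and 4.38 in the KO libraries, against 4.29, 4.63 and 4.41 in WT. Il4ra, the chain shared by the IL-4 and IL-13 receptors, had 4.43 and 4.37 in the KO libraries, against 4.32, 4.35 and 4.41 in WT. Il4ra was thus nearly level across the 5 libraries. Il22ra1 and Il6st had overlapping groups.

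Among ligands, Il18 was the sole one with a mean of 4 or more. Il18, an IL-1 family cytokine stored as a precursor in epithelium, had 4.82 and 4.71 in KO 2 and KO 3, against 4.49, 4.43 and 5.19 in WT 1, WT 2 and WT 3. Its soluble inhibitor Il18bp had 4.16 and 3.41 in the KO libraries, against 3.93, 3.33 and 3.72 in WT. KO 2 was high for Il18bp and WT 3 for Il18, and the groups overlapped for both. The exons of Il18bp overlap those of Numa1 on the opposite strand, and no source used here states whether the counting used strand.

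Il15, which maintains intraepithelial lymphocytes, had 2.96 and 3.23 in KO 2 and KO 3, against 3.22, 3.05 and 2.97 in WT. Il15ra, the chain that presents it, had 3.51 and 2.90 in the KO libraries, against 3.33, 3.01 and 3.10 in WT. Il7, a survival cytokine for lymphocytes, had 2.17 and 1.85 in the KO libraries, against 2.19, 1.78 and 2.01 in WT. For Il15 and Il15ra the KO libraries fell on both sides of the WT values, and for Il7 both lay within the WT range. Il34, a ligand of the macrophage receptor Csf1r, had 1.83 and 1.71 in the KO libraries, against 1.73, 1.92 and 1.65 in WT.

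**Figure D1:**
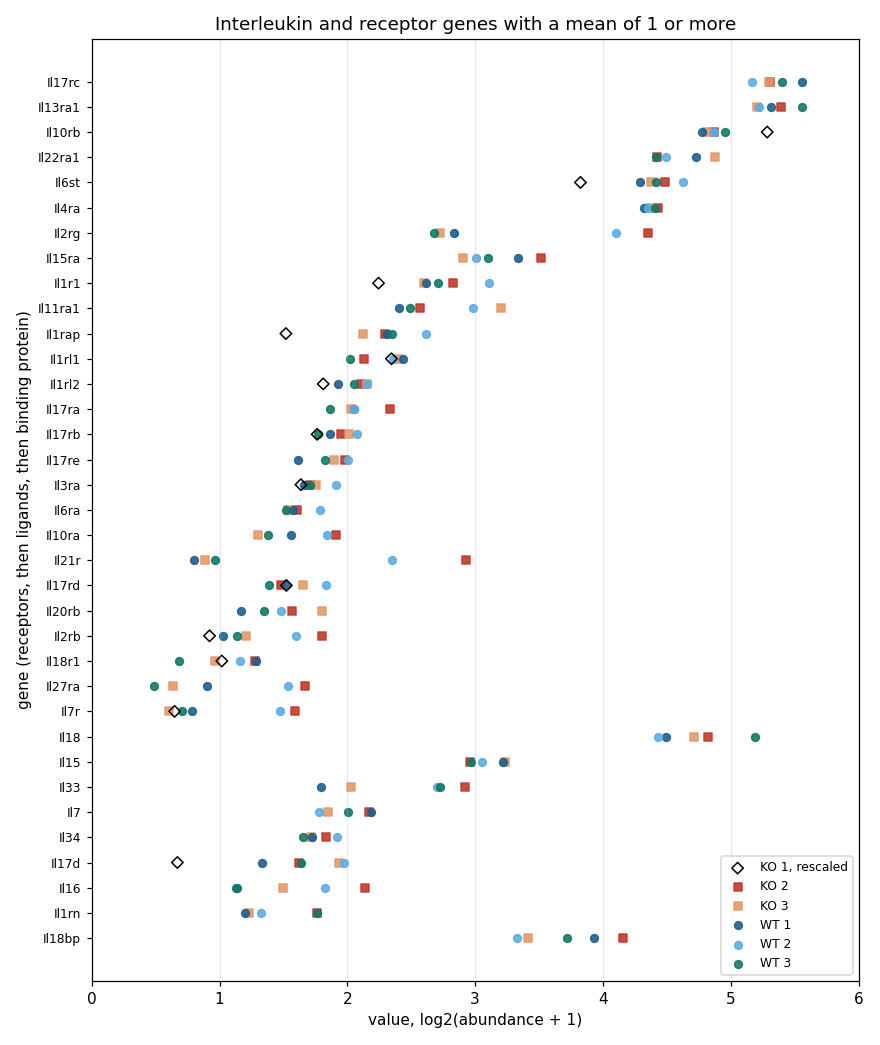
Values of the 35 genes that averaged 1 or more over the 5 libraries compared, as log2(abundance + 1) on the horizontal axis, with receptors above ligands and the binding protein at the bottom. Squares are KO 2 and KO 3, circles the WT libraries, and open diamonds KO 1 after rescaling for the genes it covers. The range over the 5 libraries was under 0.5 for 18 of the 35 genes, or 51.4%, against 73.6% of all genes at that level, and Il21r and Il2rg spread furthest, with KO 2 and WT 2 to the right.

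KO 2 and KO 3 were then set against the 3 WT libraries across all genes with limma, with Benjamini-Hochberg adjustment and a threshold of 0.05. Of the 83 members, 72 stood above 0 in at least 2 of the 5 libraries and entered the fit. None of the 72 passed, and 0 had an unadjusted p under 0.05. Over all 23408 genes fitted, 0.00427% were called, which is 1 gene, and 2.41% had an unadjusted p under 0.05. Of the members, 51 were higher and 21 lower in KO, with a median log2 fold of 0.06. Over all genes the median was 0.02, and 60.8% were higher in KO. Both KO values lay above every WT value for 1 member, against 9.76% of all genes fitted, and below every WT value for 2 members, against 3.55%. In all, 13.3% of the genes fitted had such separate groups. Of the 35 members that averaged 1 or more, 25 were higher in KO, against 62.7% of genes at that level. Among these 35, 1 member lay above all WT values and 1 below, against 9.16% and 2.28% of genes, or 11.4% for both directions.

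The 5 members higher in KO with the smallest p were Il4i1, Il20rb, Il9r, Il12rb1 and Il16. Il20rb, a receptor chain for IL-20, IL-19 and IL-24 (chromosome 9, 100457719 to 100486788, minus strand, mm10), had 1.57 and 1.80 in KO 2 and KO 3, against 1.16, 1.48 and 1.35 in WT 1, WT 2 and WT 3. It was the member whose KO values both stood above all WT values. The log2 fold was 0.35 ± 0.17 (SE; limma adjusted p = 0.99997).

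Il16, a lymphocyte chemoattractant, had 2.14 and 1.50 in KO 2 and KO 3, against 1.13, 1.82 and 1.13 in WT, a log2 fold of 0.46 ± 0.31 (SE; limma adjusted p = 0.99997). Il4i1 had 0.91 and 0.51 in the KO libraries, against 0.41, 0.52 and 0.37 in WT, a log2 fold of 0.27 ± 0.13 (SE; limma adjusted p = 0.99997). In both, KO 2 was the highest library, and KO 3 stood within the WT range. Without KO 2 the log2 fold of Il16 was 0.14 and that of Il4i1 0.07, and without KO 3 they were 0.78 and 0.47. Il16 shares exon positions with Stard5 on the opposite strand, and Il4i1 with Nup62 on its own strand, so their reads may not be separable. Il12rb1, a chain shared by the IL-12 and IL-23 receptors, had 1.13 and 0.87 in KO, against 0.75, 0.75 and 0.91 in WT. Il9r, the IL-9 receptor, was near 0 throughout, at 0.36 and 0.20 in KO, against 0.08, 0.22 and 0.17 in WT.

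The 5 members lower in KO with the smallest p were Il31ra, Il27, Il1rap, Il9 and Il23r. Il1rap, the shared accessory chain of the IL-1, IL-33 and IL-36 receptors, was the single well-expressed one. It had 2.29 and 2.12 in KO 2 and KO 3, against 2.31, 2.61 and 2.35 in WT 1, WT 2 and WT 3. Both KO values stood below all WT values, by a narrow margin in KO 2. The log2 fold was -0.21 ± 0.16 (SE; limma adjusted p = 0.99997).

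Il23r, the IL-23 receptor of innate and Th17 lymphocytes, had 0.57 and 0.45 in KO, against 0.39, 1.01 and 0.58 in WT. Il31ra, an IL-31 receptor chain, was listed at 0 in both KO libraries, against 0.09, 0.04 and 0.10 in WT. These levels are close to the floor of the scale, and exons of Il31ra overlap those of Gm3226 on the same strand. Il27, an IL-12 family subunit, was listed at 0 in KO 2 and had 0.09 in KO 3, against 0.23, 0.18 and 0.04 in WT. Il9, a cytokine of T and innate lymphoid cells, had 0.03 and 0.09 in KO, against 0.25, 0.18 and 0.03 in WT. The groups of Il27 and Il9 overlapped. Exons of Il27 overlap those of Apobr on the opposite strand.

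**Figure D2:**
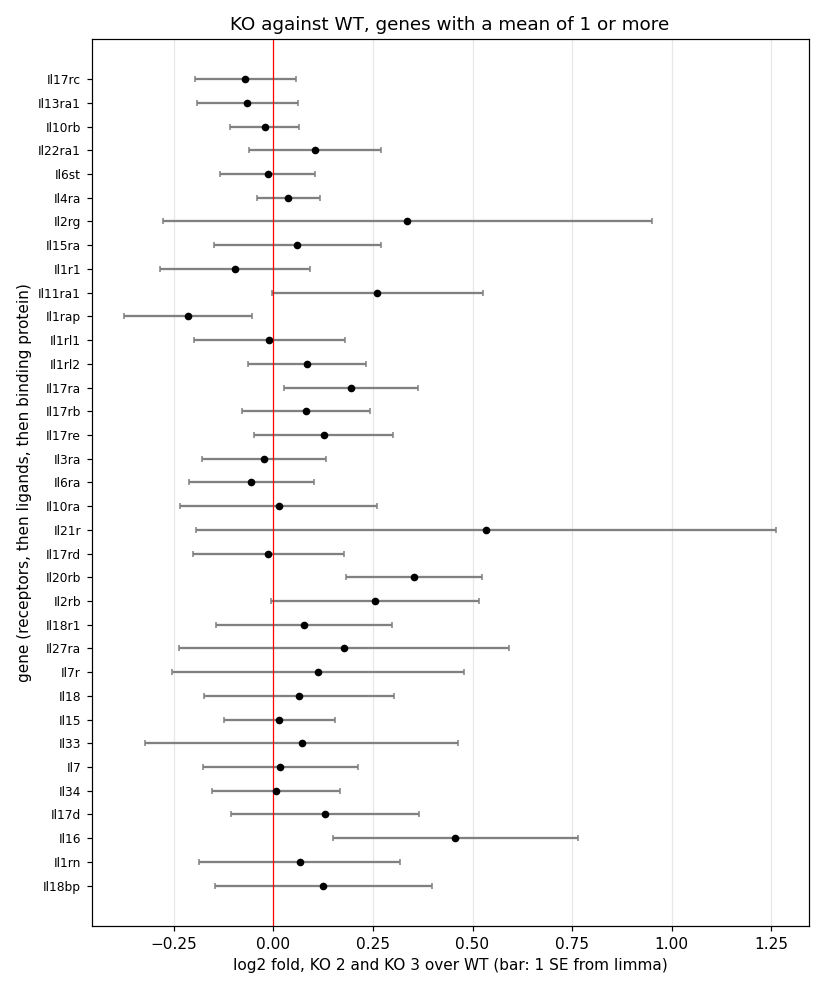
Log2 fold of KO 2 and KO 3 over the 3 WT libraries for the 35 genes that averaged 1 or more, with bars of 1 SE from limma. Folds ran between -0.21 for Il1rap and 0.53 for Il21r, and no gene passed the adjusted threshold.

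No family stood out by its calls, since every family had 0 members called. Of the 8 common gamma receptors fitted, 8 were higher in KO, with a median log2 fold of 0.12. Of the 9 genes listed for the IL-17 family, 7 were higher, with a median of 0.11. Il17rb is not among them, as it was listed with the type 2 cytokine genes. Of the 8 IL-1 family receptors, 4 were higher and 4 lower, with a median of 0.02. Of the 8 genes listed for the IL-6 and gp130 family, Il27 among them, 3 were higher and 5 lower, with a median of -0.02. These folds rest on 2 KO libraries that differed from each other, as the common gamma receptors show.

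Several members spread widely over the 5 libraries. Of the 35 members that averaged 1 or more, 5 spanned 1 or more between the lowest and highest library, namely Il21r, Il2rg, Il27ra, Il33 and Il16, against 4.72% of all genes at that level and 3.6% of all genes fitted. KO 2 was the highest library and a WT library the lowest for each. The median range was 0.487 over all 35 members, against 0.357 over all genes at that level. Il21r, which encodes the receptor of the T follicular helper cytokine IL-21 (chromosome 7, 125603429 to 125633570, plus strand), had 2.93 and 0.88 in KO 2 and KO 3, against 0.80, 2.35 and 0.97 in WT 1, WT 2 and WT 3. Il2rg, the common gamma chain (X, 101264378 to 101268255, minus strand), had 4.35 and 2.73 in the KO libraries, against 2.83, 4.10 and 2.68 in WT. In both genes KO 2 and WT 2 stood far above the other 3 libraries, which were close together.

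Il22ra2, the soluble IL-22 binding protein made mainly by dendritic cells (chromosome 10, 19621998 to 19634681, plus strand), had 1.91 and 0.18 in KO 2 and KO 3, against 0.17, 1.39 and 0.34 in WT. Il7r, the IL-7 receptor of lymphocytes, had 1.59 and 0.60 in the KO libraries, against 0.78, 1.47 and 0.70 in WT. Il27ra, the IL-27 receptor, had 1.67 and 0.63 in the KO libraries, against 0.90, 1.54 and 0.49 in WT. Again KO 2 and WT 2 were the highest of the 5. Exons of Il2rg overlap those of Gm20489 on the same strand, and exons of Il27ra those of Palm3 on the opposite strand. Il2rb, the beta chain of the IL-2 and IL-15 receptors, had 1.80 and 1.21 in the KO libraries, against 1.02, 1.60 and 1.14 in WT. Il10ra, the specific chain of the IL-10 receptor, had 1.91 and 1.30 in the KO libraries, against 1.56, 1.84 and 1.38 in WT.

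The KO against WT folds of these genes had wide errors. The log2 fold of Il21r was 0.53 ± 0.73, that of Il2rg 0.34 ± 0.61 and that of Il22ra2 0.41 ± 0.59 (SE; limma adjusted p = 0.99997 each). Without KO 2 they were -0.49, -0.48 and -0.45. Between libraries of the same number, KO 2 minus WT 2 was 0.58 for Il21r and 0.25 for Il2rg, and KO 3 minus WT 3 was -0.08 and 0.05. The labels do not say that equal numbers mark a shared litter, batch or day.

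Counted over members, KO 2 and WT 2 were the 2 highest of the 5 libraries for 13 of the 35 that averaged 1 or more, against 19.4% of all genes at that level. After centring each library on its median, the count was 8 of 35, against 6.58% of all genes. The 8 were Il10ra, Il16, Il21r, Il27ra, Il2rb, Il2rg, Il34 and Il7r. Of the 13, 11 are receptors and 2 ligands. With the floor lowered to 0.5, they were on top for 18 of 45 members, against 19.1% of genes, and for 26 of the 72 members fitted, against 17.4%.

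**Figure D3:**
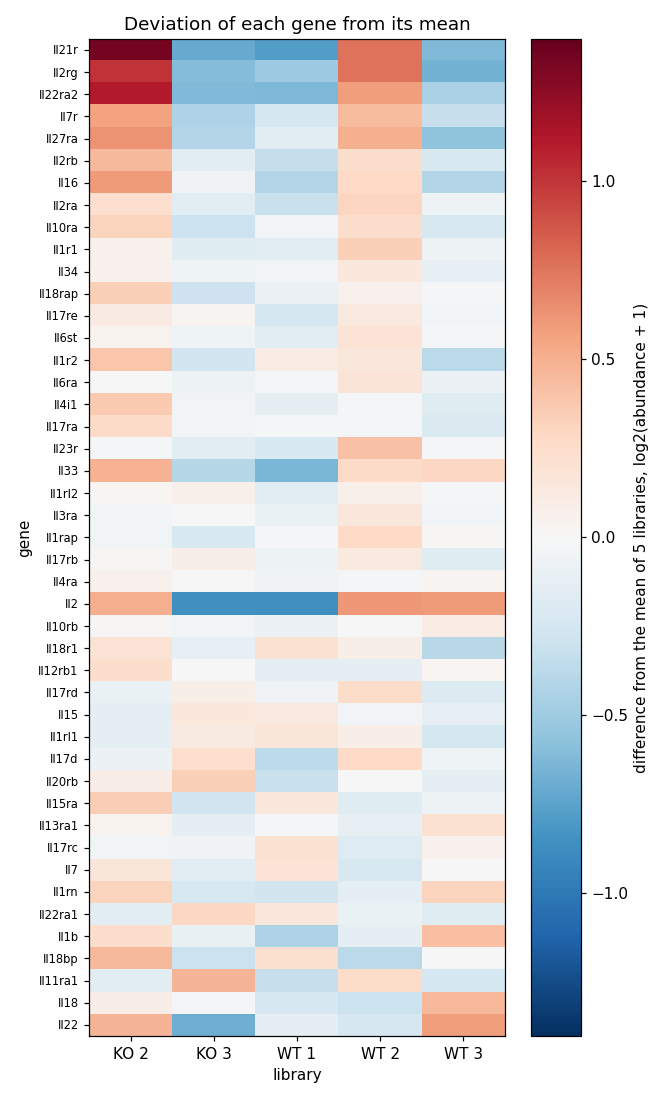
Difference of each library from the gene's mean over the 5 libraries, in log2(abundance + 1), for the 45 genes that averaged 0.5 or more, sorted by how far KO 2 and WT 2 both stand above the other 3 libraries. The top rows, from Il21r to Il10ra, are high in KO 2 and WT 2. At the bottom, Il22, Il18 and Il1b are highest in WT 3, Il11ra1 in KO 3 and Il18bp in KO 2.

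Promoters of 3 genes from the top of this order are given because these members move together across libraries. Of the 18 members on top in KO 2 and WT 2, 12 have an entry in the promoter table, from RefSeq on GRCm38.p6. Of these, the 3 with the widest gap are shown, 250 bases up to the RefSeq start. GENCODE places Il7r at 9505788 to 9530176 on the minus strand, so the Il7r window lies inside the GENCODE gene. Capitals mark the letters TGTGGT, the core bound by runt factors, and GGAAG, the core bound by ETS factors, on either strand. The reverse complements are ACCACA and CTTCC, and matches of the runt and ETS cores cannot overlap each other.
Il21r, chr7:125603179-125603428, plus strand: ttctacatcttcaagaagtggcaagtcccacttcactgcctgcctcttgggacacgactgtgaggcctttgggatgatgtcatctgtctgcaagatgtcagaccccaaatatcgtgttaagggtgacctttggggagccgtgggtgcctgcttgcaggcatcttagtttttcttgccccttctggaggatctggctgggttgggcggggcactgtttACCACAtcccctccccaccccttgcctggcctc
Il2rg, chrX:101268256-101268505, minus strand: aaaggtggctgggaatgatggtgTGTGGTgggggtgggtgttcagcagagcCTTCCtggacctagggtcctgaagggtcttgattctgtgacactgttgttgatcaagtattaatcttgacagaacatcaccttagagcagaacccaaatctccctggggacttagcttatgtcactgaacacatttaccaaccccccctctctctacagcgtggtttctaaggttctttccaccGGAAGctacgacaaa
Il7r, chr15:9529877-9530126, minus strand: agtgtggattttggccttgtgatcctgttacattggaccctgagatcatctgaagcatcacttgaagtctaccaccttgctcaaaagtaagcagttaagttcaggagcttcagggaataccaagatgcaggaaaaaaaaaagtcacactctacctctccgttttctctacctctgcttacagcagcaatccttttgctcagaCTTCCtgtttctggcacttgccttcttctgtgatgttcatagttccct

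The Il21r window holds 1 runt core, the Il2rg window 1 runt core and 2 ETS cores, and the Il7r window 1 ETS core. Of all 32851 windows in the table, 14% hold the runt core and 64.1% the ETS core, so a match of the ETS core is common. Of the 81 windows of members, 16 hold the runt core and 55 the ETS core. Matches are given as letters in the windows and do not show binding.

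Markers of B and T lymphocytes shared the 2 highest libraries with these receptors, while the order of the other 3 differed among genes. All 7 B cell markers and all 11 T cell markers had KO 2 and WT 2 as the 2 highest libraries, against 17.4% of all genes fitted. The summed abundance of the B cell markers was 74.7 and 8.79 in KO 2 and KO 3, against 3.45, 42.1 and 2.45 in WT 1, WT 2 and WT 3. That of the T cell markers was 50.5 and 13.2 in the KO libraries, against 14.8, 32.9 and 12.1 in WT. Both sums were higher in KO 2 and WT 2 than in the other 3 libraries, by a wider margin for the B cell markers. Cr2, the complement receptor of follicular B cells, had 2.80 and 1.21 in KO, against 0.46, 2.29 and 0.37 in WT.

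Of the 9 macrophage markers, 8 were also highest in KO 2 and WT 2. Their sums were 166 and 89.8 in KO and 109, 173 and 104 in WT. Of the 7 dendritic cell markers, 5 had this order, with sums of 15.8 and 8.07 in KO and 8.98, 15.1 and 7.89 in WT. It held for 5 of 9 innate lymphoid and Th17 markers and 2 of 8 tuft cell markers. The 7 epithelial markers summed to 1264 and 1455 in KO, against 1469, 1162 and 1455 in WT, so KO 2 and WT 2 were the lowest there. None of the B cell, T cell, macrophage or epithelial markers was at 0 in all 5 libraries, and 0 of them passed in KO against WT by limma. In whole tissue, more cells of a type and more RNA per cell cannot be told apart, and the part of lymphocyte content in the receptor values was not tested.

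**Figure D4:**
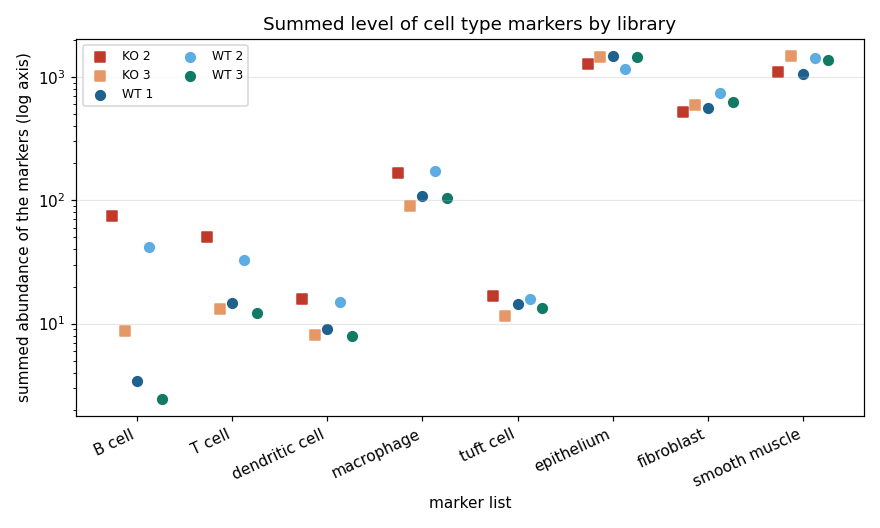
Summed abundance of the marker genes of 8 cell types, on a log axis, with squares for KO 2 and KO 3 and circles for WT 1, WT 2 and WT 3. B cell sums run between 2.45 in WT 3 and 74.7 in KO 2, while epithelial sums stay between 1162 and 1469.

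Il22 and the IL-1 family genes Il1b, Il1rn and Il18 had a different order, while Il1r1, Il1r2 and Il1a were highest in KO 2 and WT 2. Il22, the cytokine that induces epithelial antimicrobial genes, had 1.25 and 0.09 in KO 2 and KO 3, against 0.64, 0.54 and 1.36 in WT 1, WT 2 and WT 3. Il1b, the inflammasome-released cytokine, had 1.18 and 0.83 in the KO libraries, against 0.51, 0.80 and 1.35 in WT. Il1rn, the IL-1 receptor antagonist, had 1.76 and 1.23 in the KO libraries, against 1.20, 1.33 and 1.77 in WT. KO 2 and WT 3 were the 2 highest libraries for Il22, Il1b, Il1rn and Il18, and the groups overlapped for all 4. The neighbouring copy of Il22, Iltifb, was listed at 0 in every library, and reads shared by the copies could be split in counting.

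Of 18 listed genes that epithelium raises in response to IL-22 and IL-17, 14 were highest in WT 3, 1 in KO 2, 2 in KO 3 and 1 in WT 1. The share of all genes that were highest in WT 3 was not worked out, and a link to Il22 was not tested. WT 2 was the lowest library for 9 of the 18, WT 1 for 5, and KO 3, which had the lowest Il22, for Muc4 and Reg3a. The examples that follow were chosen after their values were seen. Fut2, a fucosyltransferase, had 5.31 and 4.99 in KO 2 and KO 3, against 4.86, 4.61 and 6.46 in WT. Reg3g, an antimicrobial lectin, was high throughout, at 11.18 and 11.31 in KO, against 11.17, 10.85 and 11.40 in WT. Duoxa2, a maturation factor of an epithelial oxidase, had 5.60 and 5.19 in KO, against 5.27, 4.98 and 6.24 in WT.

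Il2, the T cell growth factor, was listed at 0 in some libraries of both groups. It had 1.37 in KO 2 and was listed at 0 in KO 3, against 0 in WT 1, 1.47 in WT 2 and 1.46 in WT 3. A listed 0 can be a failed estimate in a table of this kind, so no mean is given. Il21, the ligand of Il21r, had 0.53 and 0.11 in KO, against 0.06, 0.26 and 0.05 in WT. Il33, an alarmin of stroma and epithelium, had 2.92 and 2.03 in KO, against 1.79, 2.70 and 2.72 in WT, while its receptor Il1rl1 had 2.13 and 2.40 in KO, against 2.43, 2.36 and 2.02 in WT.

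Il11ra1, the IL-11 receptor chain of stroma, had 2.57 and 3.21 in KO 2 and KO 3, against 2.41, 2.98 and 2.49 in WT. KO 3 was thus the highest library, while KO 2 stood within the WT range. The near-identical copy Il11ra2 had 0.24 and 0.34 in KO, against 0.18, 0.42 and 0.10 in WT, and the split of reads between the copies is uncertain. Il17ra, the shared IL-17 receptor chain, had 2.33 and 2.03 in KO, against 2.05, 2.05 and 1.86 in WT. Its partner for IL-17C, Il17re, had 1.98 and 1.90 in KO, against 1.61, 2.01 and 1.82 in WT. Il17ra had its highest value in KO 2, and the groups of both chains overlapped. The ligands IL-17A and IL-17F were low, with Il17a at 0.15 or less and Il17f at 0.56 or less in every library.

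Il17rb, a receptor chain for IL-25, had 1.95 and 2.01 in KO 2 and KO 3, against 1.86, 2.07 and 1.77 in WT. Il17rd, an orphan-type member of the IL-17 receptor family, had 1.48 and 1.66 in KO, against 1.52, 1.83 and 1.38 in WT. Il17d, an IL-17 family ligand, had 1.62 and 1.93 in KO, against 1.34, 1.98 and 1.64 in WT. WT 2 was the highest library for all 3, and the KO values lay among those of WT.

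Il1r1, the signalling receptor of IL-1, had 2.83 and 2.60 in KO 2 and KO 3, against 2.62, 3.11 and 2.71 in WT. Il1rl2, the IL-36 receptor, had 2.11 and 2.15 in KO, against 1.93, 2.16 and 2.05 in WT. Il18r1, the ligand-binding chain of the IL-18 receptor, had 1.28 and 0.96 in KO, against 1.29, 1.16 and 0.68 in WT. The groups overlapped for each. Il6ra, the specific IL-6 receptor chain, had 1.61 and 1.53 in KO, against 1.57, 1.78 and 1.52 in WT, with little spread among the 5 libraries.

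Genes that work with the members were taken from 6 lists of partner chains, JAK-STAT and SOCS genes, adaptors, processing enzymes and cytokine-responsive genes. Of 108 listed in the table, 106 entered the fit and 0 passed, with 67 higher and 39 lower in KO and 1 at an unadjusted p under 0.05. Their median log2 fold was 0.03, against 0.02 over all genes. Of the 23 JAK-STAT and SOCS genes, 17 were higher, with a median of 0.05, and of the 16 adaptor genes, 13 were higher, with a median of 0.10. Alox15, a lipoxygenase raised by IL-4 and IL-13, was the 1 gene at an unadjusted p under 0.05. It had 1.08 and 1.02 in KO 2 and KO 3, against 0.80, 0.63 and 0.71 in WT, a log2 fold of 0.34 ± 0.10 (SE; limma adjusted p = 0.99997). Both KO values stood above all WT values.

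Crlf2, the receptor chain of TSLP, had 2.39 and 2.75 in KO 2 and KO 3, against 2.02, 2.23 and 2.44 in WT. Its ligand Tslp had 0.48 and 0.72 in KO, against 0.15, 0.50 and 0.41 in WT. Csf2rb, the beta chain shared by the receptors of IL-3, IL-5 and GM-CSF, had 2.94 and 1.93 in KO, against 1.86, 3.05 and 2.22 in WT, so it was highest in KO 2 and WT 2. The specific chain Il3ra, for IL-3, varied less, at 1.71 and 1.76 in KO, against 1.66, 1.91 and 1.71 in WT.

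KO 1 covers 35 of the 83 members, and 30 of these were in the fit of the other libraries. Its abundances were scaled down by a factor of 2.12, which is how far its covered genes at 4 or more stood above the other libraries at the median. KO 1 differs from them in regional markers too, with Fabp6 at 3.91 against 8.16 to 8.76 elsewhere, and Gata4 at 5.19 against 0.43 to 0.63. Every covered marker of smooth muscle and fibroblasts was also below all other libraries. Myh11 stood at 3.80 against 7.34 to 7.82, and Dcn at 5.03 against 6.39 to 7.07. The epithelial marker Epcam was not low, at 8.59 against 8.10 to 8.45. Genotype, gut position and tissue make-up cannot be told apart in this library, so its values are given as a description.

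Of the 13 covered members that averaged 1 or more, KO 1 stood above the other 5 libraries for 1 and below them for 8. Over all covered genes at that level these shares were 21.5% and 42.2%. Of the 30 covered members fitted, KO 1 stood above for 2 and below for 14, against 17.5% and 37.5% of covered genes. The 1 above was Il10rb (chromosome 16, 91406164 to 91425834, plus strand), at 5.28 against 4.82 and 4.87 in the other KO libraries and 4.77 to 4.96 in WT. The exons of Il10rb overlap those of Gm21970 on the same strand. Those below included Il17d, at 0.67 against 1.62 and 1.93 in KO 2 and KO 3 and 1.34 to 1.98 in WT. Il1rap stood at 1.52 in KO 1, and Il6st at 3.82, both under every other library. With KO 1 included, the log2 fold of Il1rap was -0.44, against -0.21 without it, and it passed no threshold in either fit (limma adjusted p = 1 and 0.99997).

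Il23a, the specific subunit of IL-23 (chromosome 10, 128296139 to 128298752, minus strand), stood at 1.18 in KO 1, against 0.12 and 0.23 in KO 2 and KO 3 and 0, 0.12 and 0.15 in WT. It was the member raised furthest above the other libraries. Il22, a cytokine that IL-23 induces, had 1.01 in KO 1, inside the range of 0.09 to 1.36 elsewhere. The lymphocyte receptors Il7r and Il2rb had 0.65 and 0.92 in KO 1, which for Il7r was near the lowest of the other libraries and for Il2rb below them all, and the B cell marker Cr2 stood at 0.29.

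**Figure D5:**
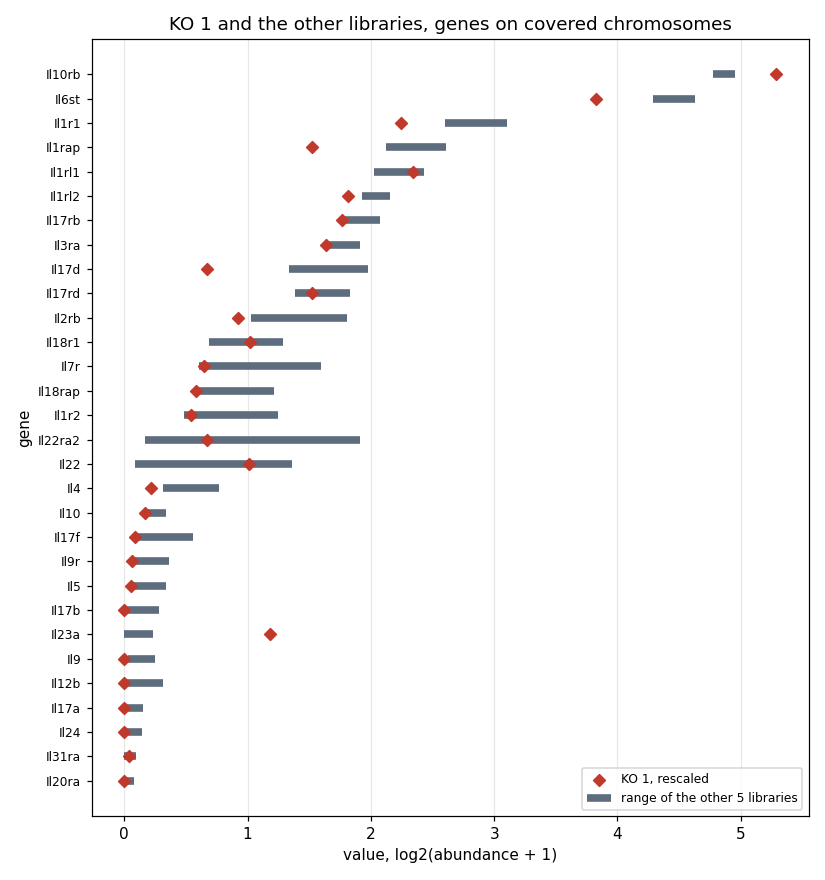
Values of KO 1 after rescaling (diamonds) and the range of the other 5 libraries (bars) for the 30 genes that KO 1 covers and that entered the fit, as log2(abundance + 1). Il23a and Il10rb lie above the bars, and Il6st, Il1r1, Il1rap and Il17d below them.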

How the data were processed

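The single table that the authors deposited holds log values of 6 libraries, taken here as log2(abundance + 1). The build is mm10, per the submitters' processing notes. Aligner, counter, unit and log base: not given in the sources used here. Linear values times exon length, summed by library, differ by a factor of 1.07 under base 2 and 1.24 under base e, so base 2 and a per-length unit were assumed. Of 32245 rows, 26 had a date for a symbol and were dropped. GENCODE vM21 gave positions. Exon overlaps are named for some members only. Others, such as Il1rap, Il11ra1 and Il17rb, also share exon positions with a gene on the opposite strand.

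Without KO 1, genes with values over 0 in 2 or more of 5 libraries entered a fit by group alone in limma (version 3.58.1, R version 4.3.3), using its variance trend and tested on simulated data, with Benjamini-Hochberg adjustment over 23408 genes. KO 1 was rescaled by 2.12, from 2160 genes at 4 or more. The members, gene lists and tests were chosen with earlier results of these data known. Values by library are given for members at a mean of 1 or more and for the 5 members of smallest p in each direction; other named genes were chosen after their values were seen. Alternatives covered libraries, replicate block, scaling, filters, added constants, variance models and log base.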

Additional observations from a re-analysis of the deposited data

Results flagged for a closer look

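Il23a in KO 1, a library outside the comparison of KO with WT, stood at 1.18 after rescaling, at least 0.5 above every other library; the other KO libraries had 0.12 and 0.23, and WT had 0 to 0.15. The margin of 0.5 was chosen after the values were seen, and KO 1 also differs in regional, smooth muscle and fibroblast markers.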

How the results depend on the processing

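No interleukin gene and no partner gene passed by limma under any of the 18 alternatives. With both KO libraries kept, up to 4 of 72 interleukin genes had an unadjusted limma p under 0.05 (without WT 3), against 573 of 23408 genes. The fits without KO 2 and without KO 3 rest on KO 3 alone and on KO 2 alone for the KO group, so for them folds alone are given. The 1 gene called among all, Gm49380, passed under 6 alternatives; 0 genes passed with an added constant of 0.1, all 6 libraries as deposited, KO 1 rescaled, a mean of at least 1, no filter, the replicate block on 5 or on 6 libraries, or any library left out (0 to 0). The median log2 fold of the interleukin genes of 0.06 ranged from -0.05 to 0.12, and was below 0 with all 6 libraries as deposited (-0.05) and without KO 2 (-0.04). The replicate block gave a median of 0.02 and a fold of 0.25 for Il21r; deviations of same-numbered libraries correlated at 0.27 and 0.33 for numbers 2 and 3 over 23408 genes, which cannot show pairing with 2 pairs, and the block changed no call among the interleukin genes. Of 280 fold values of 16 named genes under the alternatives, 263 kept their direction and 0 passed. The variance models, filters and log base could not turn a fold. With KO 1 rescaled, genes that KO 1 does not cover keep the main fold. The replicate block on 5 libraries gave the same folds as leaving out WT 1. The 263 is therefore no measure of stability. With all 6 libraries as deposited, where KO 1 zeros enter, folds turned for Il12rb1 (-0.14), Il16 (-0.15), Il20rb (-0.21), Il21r (-0.10), Il27ra (-0.21) and Il2rg (-0.84); Il7r turned with KO 1 rescaled (-0.037, also -0.037 with the block). Over left-out libraries, folds ran from -0.49 to 1.56 for Il21r, -0.48 to 1.15 for Il2rg, -0.45 to 1.28 for Il22ra2, -0.34 to 0.69 for Il27ra, -0.38 to 0.61 for Il7r and -0.042 to 0.55 for Il2rb (lowest without KO 2, highest without KO 3), and -0.28 to 0.027 for Il23r (highest without WT 2). Without WT 3, Il27ra (-0.067) and Il7r (-0.028) also turned. The other named folds kept their sign, at 0.14 to 0.78 for Il16, 0.07 to 0.47 for Il4i1, 0.07 to 0.32 for Il12rb1, 0.04 to 0.20 for Il9r, 0.23 to 0.47 for Il20rb, -0.30 to -0.12 for Il1rap, -0.16 to -0.06 for Il27, -0.15 to -0.04 for Il9 and -0.09 to -0.06 for Il31ra. The cause was not tested. The count of 13 genes with KO 2 and WT 2 on top fell to 8 with median centring and 10 with quantile normalization, settings added after the data were seen. Of the covered interleukin genes that averaged 1 or more, 1 was above the others in KO 1 under each scale factor tried. The number below the others, 8 under the main factor, ran from 6 to 9. Depth is unknown, so low ligands cannot be told from absent ones.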
